A study of Homo sapiens with 8 samples.

Results

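Of the 1008 regions in the authors' TGFβ1 list of LARP6 binding, 393 were chosen by their place: they shared no nucleotide on the same strand with any of the 627 regions of the control list from the same authors. These 393 are called TGFβ1-only regions here, and the remaining 615 are called shared regions. The sites come from eCLIP: ultraviolet light fixes the protein to the RNA it touches, an anti-LARP6 antibody pulls down the trimmed fragments, and these are sequenced next to an input of matched protein size. The cells were human hepatic stellate cells labelled as wild type, grown in DMEM with serum. One condition received TGFβ1 at 5 ng/ml for a time not given in the sources used here, and the control condition is labelled both as untreated and as DMSO, so the presence of a vehicle is unclear. Each condition had 2 LARP6 libraries and 2 inputs (8 samples). Whether the replicates were separate cultures is not given in the sources used here, and their spread may be a technical one.

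LARP6 belongs to the La-related proteins. It is best known from the stem-loop at the start codon of type I and type III collagen mRNAs, which it holds and whose translation it promotes. Stellate cells are the main source of collagen in the injured liver. TGFβ1 is the cytokine best known for turning them into contractile, matrix-secreting myofibroblasts. A region that appears in the TGFβ1 list alone can lie in an RNA that has a control region elsewhere, called an extra site, or in a gene with no control region at all, called a new gene.

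The TGFβ1-only regions were spread over many genes. They lay in 246 genes, of which 51 were extra-site genes and 195 were new genes. The extra-site genes held 98 regions and the new genes 288, and 7 regions were assigned to no gene. All 51 extra-site genes also held a shared region. The numbers rest on the replicates: with TGFβ1 2 alone standing for its condition there were 1307 TGFβ1-only regions and 697 new genes, and with control 2 alone standing for control there were 279 and 128. Merged where at most 20 nt apart, the 393 regions made 297 sites. Among 4576 genes with a tested cluster in all 4 LARP6 libraries, 5.35% held a TGFβ1-only region and 4.24% were new genes. A shared region was held by 4.33% of them. The counts of listed genes below are to be read beside these shares. The new genes range from FLNA and FLNC, which encode actin-crosslinking filamins, through COL5A2, ELN and TGFBR1 to STAT3, XIAP and KEAP1. The extra-site genes include COL1A1, COL1A2, COL3A1, LTBP1, MMP2, NOTCH2 and RRBP1.

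The bases at the 5′ end of an mRNA are shown first, because LARP6 is known for sites near the 5′ end and because 9 TGFβ1-only regions, 1 in each of 9 genes, covered at least 20 of the first 50 bases after a RefSeq start. The lines give up to 30 bases of each of these regions, 5′ to 3′ on the strand of the gene, from RefSeq (GRCh38.p14). Capitals mark runs of 4 or more bases that are each G or C, a pattern that reads the same on both strands.
SCP2 at chr1:52927283-52927312, plus strand: tgtgttGCCGCCCGCGGCCCtggcttCGGG
SRM at chr1:11059969-11059997, minus strand: CGCCGCGCGGCCtgcagtCCCGGGCCCGC
VGLL3 at chr3:86991100-86991128, minus strand: gctCCCCaCGGCtGCCCGaCCCGGGCCtg
CSNK2B at chr6:31666091-31666120, plus strand: CCCCCaCCCCacttCGCCtGCCGCGGtcgg
POLDIP2 at chr17:28357481-28357510, minus strand: gaaCGCCGCCCGGCCGCGGGtCGGGCtctg
UBA2 at chr19:34428381-34428410, plus strand: GCGGCtcggttctCCCGCCtCCGCCtCCGC
UQCR11 at chr19:1605433-1605462, minus strand: agtgtaGCCGGGtcagctggacagggtcat
ROMO1 at chr20:35699426-35699454, plus strand: gctgagcgacccaGCCCGCGagcgaggtg
ZBTB21 at chr21:42010321-42010350, minus strand: tcaagatggatggaatcacaGCGGCaGCGG

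For comparison, the 5′ bases of the LARP6 mRNA itself, which fall in shared regions, are given from 2 neighbouring regions.
LARP6 at chr15:70854132-70854157, minus strand: agtcgctGCCGaCCGGCtggctGGGC
LARP6 at chr15:70854112-70854131, minus strand: cttGCGGCGtgaggaCCCCG

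The 9 TGFβ1-only stretches held 56.7% to 89.7% G and C, with a median of 80.0%, and 9 of 9 held a run of 4. The first 30 bases after 35116 RefSeq starts had a median of 60.0% (quartiles 50.0% and 70.0%), and 68.7% of them held such a run. The windows are unlike: the printed stretches begin at positions 1 to 22 after the start and end as late as position 50. The RefSeq starts were also not limited to genes with a tested cluster. The stretch with the lowest share was that of ZBTB21, a zinc finger protein gene, and the one with the highest was that of SRM, which encodes spermidine synthase. The printed bases are a description, and bases of the 393 regions outside these windows were not used here.

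Every region value below is the log2 fold of the LARP6 library over its size-matched input, as the authors gave it for the highest cluster of that library that overlaps the region. Enriched clusters are those with both the log2 fold and the −log10 p at 3 or more, limits that all regions of both lists pass. Where 4 values stand together, they are in the order control 1, control 2, TGFβ1 1, TGFβ1 2. Without counts in the files, read depth is unknown. The authors tested 51273 clusters in control 1, 39880 in control 2, 31137 in TGFβ1 1 and 54536 in TGFβ1 2. The regions were chosen by the folds and p-values of these same 4 libraries, through the authors' 2 lists, so the values of the regions are a description and carry no test. With 2 libraries against 2, an exact permutation test cannot give a two-sided p below 0.333. The libraries come from bulk cells, so a site used in fewer cells and a site bound less in each cell cannot be told apart.

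TGFβ1-only regions were mostly regions of moderate enrichment after TGFβ1 with a lower value, rather than no signal, in control. The median log2 folds at the 393 regions were 2.44, 2.97, 3.71 and 4.18. At the 615 shared regions they were 4.15, 4.69, 4.62 and 5.33. In the authors' TGFβ1 list the TGFβ1-only regions had a median of 3.98 (range 3.0 to 6.08), and the shared regions had a median of 5.00 with a highest value of 9.49. The 2 TGFβ1 libraries themselves were enriched at 320 and 376 of the 393 regions, beside 2.69% and 3.64% of all their tested clusters. Both were enriched at 303 regions and 1 of them at 90. The control libraries were enriched at 8 and 137 of the 393, beside 1.21% and 2.09% of all their clusters.

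The 2 control replicates differed at these regions. Control 1 was enriched at 8 regions, in PRMT5, SHC1, ERCC2, KLF13 and SYAP1, and control 2 at 137. No region was enriched in both, 145 were enriched in 1, and 248 (63.1%, 95% Wilson interval 58.2 to 67.7) in neither, a count that was 385 with control 1 alone. At shared regions the control libraries were enriched at 533 and 592 of 615. The control list comes from both replicates, so the lack of regions enriched in both follows from how the regions were chosen. The part of this choice in the difference between the control replicates was not tested. The interval covers counting error only. It takes the regions as independent, though neighbouring regions of a gene are not, and control values entered their choice. Of the 248 regions, 185 were enriched in both TGFβ1 libraries.

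A missing control call seldom meant a missing control cluster. Both control libraries had a tested cluster at 368 of the 393 regions, 1 had it at 22, and neither at 3. In control 1, 244 regions fell short of both limits, 68 passed the fold limit alone, 52 passed the p limit alone and 21 had no cluster. In control 2 these counts were 138, 52, 59 and 7. A log2 fold of at least 3 was reached in at least 1 control library at 213 regions and in both at 52. Only 29 regions were below 2 in both control libraries, and 2 were below 1 in both.

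**Figure D1:**
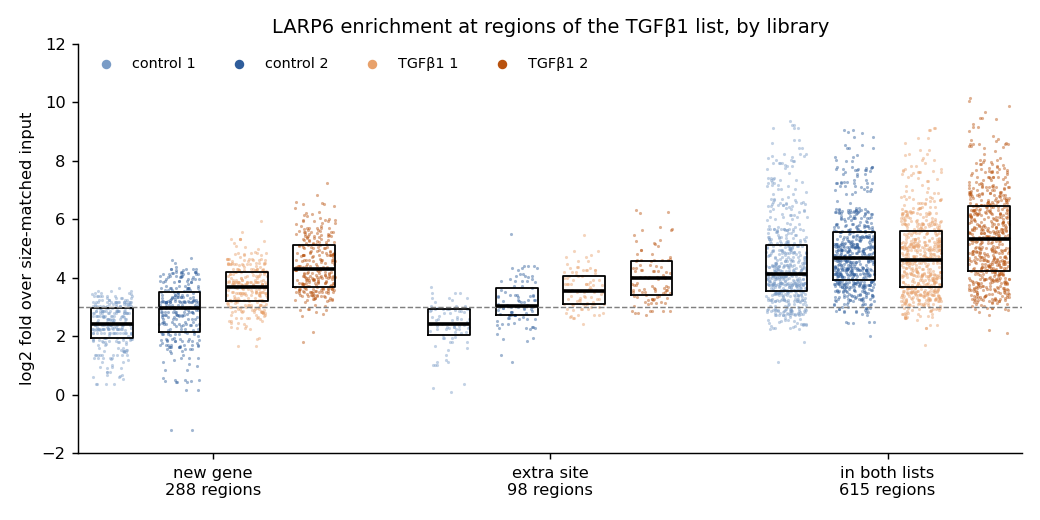
Log2 fold over size-matched input (vertical axis) at each region of the TGFβ1 list, by LARP6 library, for 288 regions in new genes, 98 extra-site regions and 615 regions in both lists. Each point is 1 region with a tested cluster, boxes show quartiles and median, and the dashed line marks 3. In the new genes the medians of control 1 and 2 are 2.44 and 2.96, those of TGFβ1 1 and 2 are 3.71 and 4.29, while the medians of regions in both lists lie above the line in all 4.

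The plot of values by library shows that new genes and extra sites had similar control values and that the new genes were somewhat higher in TGFβ1 2. At 368 regions with a value in all 4 libraries, the mean of the TGFβ1 libraries minus the mean of the control libraries had a median of 1.33 (range −0.27 to 4.04, quartiles 0.86 and 1.88). The median was 1.45 for new genes (n = 282) and 0.97 for extra sites. For shared regions it was 0.33, and over all clusters of TGFβ1 1 and TGFβ1 2 with a counterpart in the other libraries 0.34 and 0.33. Both TGFβ1 values lay above both control values at 257 of the 368 regions (69.8%), where the share over all clusters was 31.1% and 31.4%. The difference was at least 1 at 242 regions (65.8%), beside 21.5% and 21.2% of all clusters, and at least 2 at 81 regions (22.0%), beside 3.47% and 3.46%. These shares follow from how the regions were chosen. Within a condition, the SD of the 2 libraries at a region had a median of 0.52 in control and 0.57 in TGFβ1. At 202 of the 368 regions the difference was larger than the sum of both SDs. This count too follows from how the regions were chosen, and each SD rests on 2 libraries. The same share over all clusters was not computed, so the count has nothing to be read against.

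**Figure D2:**
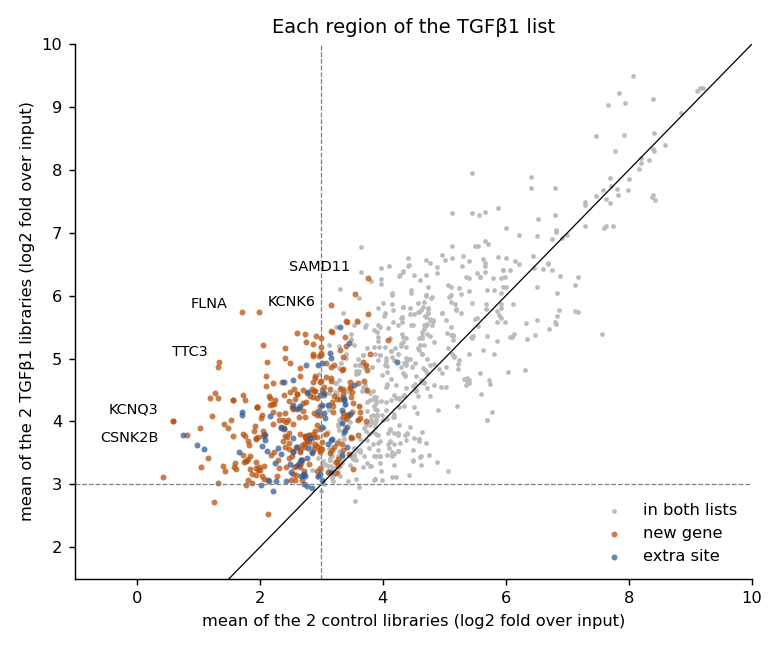
Mean log2 fold of the 2 TGFβ1 libraries (vertical axis) against that of the 2 control libraries (horizontal axis) for each region of the TGFβ1 list with a value in all 4 libraries. Dashed lines mark 3 on each axis and the solid line marks equality. The points labelled FLNA, KCNK6, TTC3, KCNQ3 and CSNK2B, with differences of 3.03 to 4.04, lie toward the upper left, and most TGFβ1-only regions lie between them and the line of equality.

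The plot of condition means shows a continuous band, with no gap between TGFβ1-only and shared regions. The highest differences were found in FLNA (4.04), KCNK6 (3.77), TTC3 (3.62), PPP1R13L (3.54) and KCNQ3 (3.41). SCP2 (3.19), DLG5 (3.18), OLFM2 (3.16), ZNF281 (3.06) and CSNK2B (3.03) followed. TTC3, a ubiquitin ligase gene, had 0.60, 2.07, 4.48 and 5.42 at chr21:37202743-37202797, 348 nt before its 3′ end. PPP1R13L, which encodes the p53 inhibitor iASPP, had 1.38, 1.26, 5.26 and 4.46. DLG5, a scaffold protein of cell junctions, had 0.96, 1.58, 4.01 and 4.89. In these 3 genes both TGFβ1 libraries were enriched and both control libraries were far below the limit. KCNQ3, a potassium channel gene, had 2.38, −1.19, 4.26 and 3.75, with a wide gap between the control libraries. At the other end, a region of RHOQ, a small GTPase gene, had 3.19, 3.85, 3.08 and 3.42, a difference of −0.27. Regions of ITGBL1 (−0.06), SERF2 (0.03), RPS19 (0.05) and CLN8 (0.05) had hardly any difference. At CLN8 the 4 values were 3.19, 3.35, 3.20 and 3.42, past the fold limit in all libraries, and the control values fell short in p alone.

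Among matrix genes, the type I and III collagen mRNAs had extra sites, and COL5A2 was a new gene. Fibrillar collagens form the tensile fibres of scar tissue. Of 5 such genes tested in all 4 libraries, 4 held a TGFβ1-only region, beside 5.35% of all genes. A shared region was held by 4, beside 4.33% of all genes. The 4 genes with a TGFβ1-only region had 62 to 195 tested clusters per library, where the medians over all genes were 3 to 6. The shares are thus not of genes with like numbers of clusters. COL1A1, the α1 chain of type I collagen, had 15 TGFβ1-only regions, more than any other gene. Of these, 12 tile 1 stretch at chr17:50199799-50199947 on the minus strand, 1689 to 1825 nt from the 5′ end of the gene and 9 nt from a control-list region. Control 1 had no tested cluster in this stretch. Control 2 had 2.97 to 4.41 there, and was enriched at 11 of the 12 pieces. TGFβ1 1 had 3.11 to 3.87 and TGFβ1 2 had 3.36 to 4.63, so control 2 and the TGFβ1 libraries overlapped. The 3 other COL1A1 regions had 2.13 to 2.95 in control 1, 2.29 to 3.06 in control 2, 2.75 to 3.10 in TGFβ1 1 and 3.03 to 3.29 in TGFβ1 2.

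COL1A2, the α2 chain, had 6 TGFβ1-only regions at 4 sites, beside 42 control-list regions. Its highest, at chr7:94410478-94410486, lay 4 nt from a control-list region and had 2.94, 3.90, 3.57 and 4.25. COL3A1, for type III collagen, had 3 regions at 2 sites, with list values of 3.03 to 3.28 next to a highest control-list value of 9.17 in the same gene. Its highest had no cluster in control 1, 2.74 in control 2, and 3.59 and 2.82 in the TGFβ1 libraries. Over the 3 COL3A1 regions, control 2 ranged from 2.74 to 3.03 and was enriched at 2. TGFβ1 1 ranged from 3.19 to 3.59 and was enriched at 3, while TGFβ1 2 ranged from 2.82 to 2.87 and was enriched at 0. Control 2 thus overlapped with TGFβ1 2. In COL1A1 and COL1A2 the highest control-list values were 7.92 and 8.02, so in all 3 mRNAs the TGFβ1-only regions had lower values than the control-list regions at the top of the same RNA. COL5A2, the α2 chain of type V collagen, had 5 regions at 3 sites and none in the control list. Its highest, at chr2:189079089-189079107, had 1.73, 2.68, 4.50 and 4.07, and both TGFβ1 values lay above both control values. Over the 29 regions of the 4 genes, the median log2 folds were 2.22, 3.06, 3.45 and 3.62. Control 2 was enriched at 17 of the 29 and control 1 at 0.

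Other matrix genes were divided between the classes. Of 10 other collagens tested, COL6A2 and COL18A1 had extra sites. COL6A2 of type VI collagen had 3 regions, the highest at 1.96, 2.53, 3.12 and 3.56. COL18A1, the precursor of endostatin, had 2.19, 4.12, 4.01 and 3.40 at a place 8 nt from a control-list region, so control 2 had the highest of the 4 values. Of 17 genes of elastic fibres and microfibrils, 4 held a TGFβ1-only region (23.5%, beside 5.35% of all genes). ELN, the elastin gene, was a new gene with 4 adjoining regions at 1 site, 767 to 831 nt before its 3′ end. The highest ELN region, at chr7:74069099-74069114, had 2.25, 1.63, 3.08 and 4.38. EMILIN1, an elastin-associated glycoprotein gene, was new too, with 2.25, 3.20, 3.39 and 3.81, and control 2 was enriched there. LTBP1, which holds latent TGFβ in the matrix, had 2 pieces of 1 extra site. At the first of these control 2 reached 5.51, the highest control value at any TGFβ1-only region, beside 2.96 in control 1 and 4.20 and 5.68 in the TGFβ1 libraries. FBN1, the fibrillin gene, had 2.94, 2.41, 2.79 and 4.00 at a place 171270 nt from its nearest control-list region.

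THBS1, an activator of latent TGFβ, and IGFBP7, an insulin-like growth factor binding protein gene, were the new genes among 26 other matrix and matricellular genes. The highest of 3 THBS1 regions had 0.65, 2.48, 3.71 and 3.81. Elsewhere in THBS1 both control libraries had an enriched cluster, and the highest values anywhere in the gene were 3.79, 4.17, 3.71 and 3.81, so control was not below TGFβ1 over the gene as a whole. IGFBP7 had 2.25, 2.92, 2.74 and 3.54, with control 2 above TGFβ1 1. Of 22 collagen processing genes, P4HA2, a prolyl hydroxylase subunit gene, and BMP1, the procollagen C-proteinase gene, were new. P4HA2 had 2.25, 3.91, 2.62 and 4.97, and BMP1 had 2.25, 3.55, 2.87 and 4.84. In both the second replicate of each condition was enriched and the first was not. Of 16 matrix proteases and inhibitors, MMP2, the gelatinase A gene, had an extra site 2 nt from a control-list region (2.26, 2.82, 3.25 and 4.23). SERPINE2, a serine protease inhibitor gene, was new (1.88, 2.39, 1.69 and 3.38) and enriched in TGFβ1 2 alone.

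Of 28 genes of TGFβ and BMP signalling, TGFBR1 and SKI were new genes (7.14%, beside 5.35% of all genes with a TGFβ1-only region). No gene of this list held a shared region, beside 4.33% of all genes, a share that means few genes in a list of 28. TGFBR1, the type I receptor, had 2.88, 2.91, 4.90 and 4.56 at chr9:99142535-99142597. SKI, a repressor of SMAD-dependent transcription, had 2.25, 0.58, 3.87 and 4.07 at chr1:2307784-2307849. In both genes the TGFβ1 libraries were enriched, the control libraries were not, and the groups did not overlap. The same enrichment pattern was found at 185 of the 393 TGFβ1-only regions. Both TGFβ1 values lay above both control values at 69.8% of those with 4 values, beside 31.1% and 31.4% of all clusters.

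Cytoskeletal genes formed one of the larger groups, and its members were new genes only. Of 53 genes of the actin cytoskeleton and contractility tested in all libraries, 6 held a TGFβ1-only region (11.3%). A shared region was held by 3 of the list, beside 4.33% of all genes. FLNA, at chrX:154349962-154349980, had 1.20, 2.21, 4.24 and 7.25, and the highest value of any TGFβ1-only region was the last of these. FLNC had 6 regions at 4 sites, in which control 1 ranged from 1.12 to 2.88, control 2 from 1.76 to 2.72, TGFβ1 1 from 2.32 to 3.23 and TGFβ1 2 from 3.27 to 4.41. Control libraries were enriched at 0 of the 6. PLEC, which encodes the cytolinker plectin, had 2.30, 3.30, 3.49 and 4.09, MICAL2, an actin-oxidising enzyme, had 1.49, 2.14, 2.54 and 4.28, and ACTN1, the α-actinin 1 gene, had 2.49, 3.22, 3.32 and 3.68. Control 2 was enriched at the PLEC and ACTN1 regions. Over the 15 regions of this list the medians were 2.22, 2.58, 3.23 and 3.89.

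Of 32 genes of focal adhesions and integrins, 4 were new genes (12.5%, beside 4.24% of all genes). SEMA7A, a membrane semaphorin that binds integrins, had 1.38, 2.85, 4.43 and 5.48 at chr15:74410469-74410557. FHL3, a LIM-domain protein gene, had 2.88, 2.96, 4.57 and 6.13. ITGAV, the αv integrin chain that takes part in releasing active TGFβ, had 2.44, 3.96, 4.41 and 5.38, and control 2 was enriched there. ITGA11, a collagen-binding integrin chain, had 0.67, 1.85, 1.66 and 3.79, so TGFβ1 1 lay below control 2. PDLIM2, a PDZ and LIM domain protein, belongs to no list and had 6 regions at 2 sites. At the higher site its values were 2.96 and 3.02 in control and 4.48 to 4.64 and 5.63 to 6.0 in TGFβ1, and control 2 was just past both limits. PAK2, a kinase downstream of Rac and Cdc42, had 4 regions at 3 sites, the highest at 2.12, 2.72, 4.48 and 5.87. AFAP1, an actin filament associated protein, had the highest list value of any extra site (5.51), with 2.49, 4.12, 4.79 and 6.23 at chr4:7760840-7760887, 1364 nt from a control-list region.

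**Figure D3:**
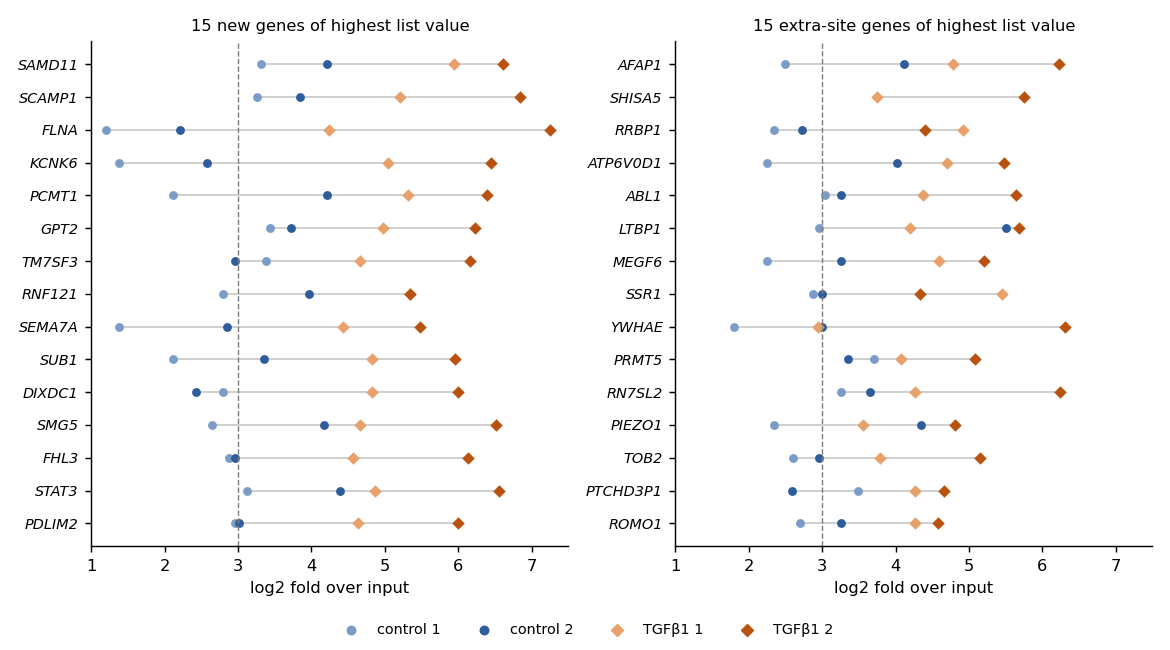
Log2 fold over input (horizontal axis) in the 4 LARP6 libraries at the highest TGFβ1-only region of the 15 new genes and the 15 extra-site genes with the highest values in the TGFβ1 list. Circles are control libraries, diamonds are TGFβ1 libraries and the dashed line marks 3. Both TGFβ1 libraries lie to the right of both control libraries in all 15 new genes, while control 2 lies past TGFβ1 1 in LTBP1, PIEZO1 and YWHAE, and SHISA5 has no control point.

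The plot of named genes shows how far the strongest TGFβ1-only regions lay from control. These genes were picked by their TGFβ1 list values, so the separation in the plot follows in part from the pick. Both TGFβ1 values lay above both control values at 69.8% of TGFβ1-only regions with 4 values. Over all clusters the share was 31.1% and 31.4%. SAMD11, a nuclear protein with a SAM domain, held the highest list value (6.08) at chr1:943811-943881, with 3.32, 4.22, 5.94 and 6.61. SCAMP1, a membrane carrier protein of the secretory pathway, had 3.25, 3.85, 5.20 and 6.84. KCNK6, a two-pore potassium channel gene, had 1.38, 2.58, 5.04 and 6.45. PCMT1, which repairs damaged aspartyl residues of proteins, had 2.12, 4.22, 5.32 and 6.40 at the highest of 3 adjoining regions. GPT2, the mitochondrial alanine transaminase gene, had 3.44, 3.72, 4.98 and 6.23. Of these, SAMD11, SCAMP1, PCMT1 and GPT2 were enriched in control 2 at the same place.

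TM7SF3, a membrane protein gene, had 3.38, 2.96, 4.66 and 6.17, and RNF121, a ubiquitin ligase gene of the secretory pathway, had 2.79, 3.96, 5.35 and 5.34. SUB1, a transcriptional coactivator, had 2.12, 3.35, 4.83 and 5.95. SMG5, a factor of nonsense-mediated decay, had 2.65, 4.17, 4.66 and 6.52. STAT3, the transcription factor of interleukin-6 signalling, had 3.12, 4.39, 4.87 and 6.56. The last 4 of these genes were enriched in control 2 at the same place.

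Of 17 AP-1 and ATF factors, ATF7, ATF5 and ATF4 held a TGFβ1-only region (17.6%, beside 5.35% of all genes). None held a shared region, beside 4.33% of all genes, a share that means few genes in a list of 17. ATF4, the central factor of the integrated stress response, had 2.60, 1.51, 3.53 and 4.02 at the higher of 2 adjoining regions. ATF5, its relative, had 2.79, 2.70, 3.92 and 3.61 at a place 210 nt from the 3′ end. ATF7 had 3.32, 4.26, 4.08 and 6.06, so control 2 lay above TGFβ1 1, and the gene of this region is uncertain because another gene overlaps the place. VGLL3, a TEAD cofactor, was the member among 14 genes of the YAP, TEAD and MRTF pathway. Its region covers the bases printed above and had 0.67, 1.65, 3.32 and 3.53, with both TGFβ1 libraries enriched. TRIB3, a pseudokinase induced by ATF4, and KEAP1, the sensor of oxidative stress, belong to no list and were named after their values were seen. TRIB3 had 1.23, 2.39, 3.16 and 4.22, and KEAP1 had 3.04, 3.65, 4.62 and 5.05.

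Other signalling genes were scattered. Of 20 Wnt pathway genes, DIXDC1, a positive regulator of the pathway, had 2.79, 2.43, 4.83 and 5.99, and CTNNB1, the β-catenin gene, had 2.70, 1.38, 4.48 and 3.72 at a place 92 nt from the 3′ end. NOTCH2 had an extra site at 1.02, 3.17, 4.71 and 2.87, and was the member among 12 genes of Notch, Hedgehog and ephrin signalling. Among growth factor receptors and ligands, DDR2, a receptor for fibrillar collagen, had 3.19, 4.31, 4.79 and 4.85, with control 2 enriched. FGF1, a fibroblast growth factor gene, had no control cluster at its region and 3.01 and 5.77 in the TGFβ1 libraries. FGF1 was not tested in all libraries, so DDR2 alone makes 1 of 25 (4.00%). ABL1, a tyrosine kinase gene, had an extra site at 3.04, 3.26, 4.37 and 5.64, and YWHAE, a 14-3-3 protein gene, had one at 1.79, 3.0, 2.94 and 6.31.

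The secretory pathway held the largest number of genes of any list. Of 62 genes of the endoplasmic reticulum and secretion, 8 had a TGFβ1-only region (12.9%, beside 5.35% of all genes). Of these 8, 5 were new genes. RRBP1, a ribosome receptor of the rough endoplasmic reticulum, had extra sites with a highest TGFβ1-only value (5.15) above its highest control-list value (3.71), at 2.35, 2.72, 4.92 and 4.40. SSR1, a subunit of the translocon-associated complex, had 2.88, 3.0, 5.45 and 4.34 at a place 4 nt from a control-list region, and TXNDC5, a disulfide isomerase gene, had 1.12, 2.32, 3.68 and 4.62. At these extra sites both TGFβ1 values lay above both control values, as at 69.8% of TGFβ1-only regions with 4 values. STT3A, the catalytic subunit of oligosaccharyltransferase, had 2.79, 3.51, 3.43 and 5.97, SSR3 had 2.38, 3.35, 2.36 and 5.25, and ARF1, a GTPase of vesicle coats, had 2.65, 3.31, 2.90 and 5.31. In these 3 new genes control 2 overlapped with TGFβ1 1. SEC61A1, the channel of the translocon, had 0.55, 2.10, 3.12 and 2.91, and KDELR2, which returns proteins to the endoplasmic reticulum, had 2.70, 3.51, 2.48 and 3.91. Over the 13 regions of this list the medians were 2.35, 2.86, 3.68 and 4.34, and 11 were enriched in neither control library.

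Of 34 genes of sterol and fatty acid metabolism, 4 held a TGFβ1-only region (11.8%, beside 5.35% of all genes). FDFT1, the squalene synthase gene, had 1.91, 2.72, 4.48 and 3.76. SREBF1, the transcription factor of lipid synthesis, had 2.07, 3.72, 3.68 and 3.60, with control 2 the highest of the 4. LRP1, a large endocytic receptor, had 3 extra regions, the highest at 2.60, 2.62, 4.35 and 4.05. SCP2, a sterol carrier protein gene, is in no list. Its region begins close to the 5′ end and includes the bases printed above, with 1.38, 1.00, 3.71 and 5.05.

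Of 44 genes of lysosomes and autophagy, ATP6V0D1, a subunit of the proton pump, and SORT1, a sorting receptor, had extra sites (4.55%). A shared region was held by 6 genes of the list, beside 4.33% of all genes. ATP6V0D1 had 2.25, 4.02, 4.71 and 5.48, and SORT1 had 1.60, 2.72, 3.94 and 4.25. Of 43 solute carriers and ion channels, KCNK6, ITPR3 and SLC3A2 were new and PIEZO1 had an extra site (9.30%, beside 5.35% of all genes). ITPR3, a calcium release channel gene, had 1.96, 4.12, 4.32 and 4.79. SLC3A2, the heavy chain of amino acid transporters, had 2.55, 3.85, 3.90 and 4.60. PIEZO1, a mechanically gated channel, had 2.34, 4.35, 3.56 and 4.81. Control 2 was enriched at 7 of the 8 regions of this list and control 1 at 0.

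Genes of energy metabolism and translation are read beside the 5.35% of all tested genes. Of 34 genes of oxidative phosphorylation, UQCR11, a complex III subunit gene, was new (2.94%), with 2.12, 3.22, 2.53 and 4.16. Of 23 genes of glycolysis and one-carbon metabolism, 2 were new (8.70%). SLC16A1, a lactate transporter, had 2.12, 2.51, 3.20 and 3.31, and PGK1, a glycolytic kinase gene, had 2.88, 1.20, 1.91 and 4.36. RPS19 was 1 of 64 cytosolic ribosomal protein genes (1.56%), at 2.95, 3.37, 3.12 and 3.29, with an extra region 5 nt from a control-list region. EIF6, an anti-association factor of the large ribosomal subunit, was 1 of 38 translation factors and La-related proteins (2.63%), at 2.38, 1.58, 3.08 and 3.46. LARP6 itself held no TGFβ1-only region.

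No gene among 62 of RNA binding and splicing held a TGFβ1-only region. Of 53 chromatin and transcription regulators, 2 held one (3.77%). BRD2, a bromodomain protein gene, had 3.44, 3.07, 3.66 and 5.05, and NFIX had an extra site 1 nt from a control-list region at 2.30, 2.28, 4.06 and 3.12. Of 30 genes of ubiquitin, proteasome and cell death, 2 held one (6.67%). XIAP, an inhibitor of caspases, had 3 regions at 3 sites, the highest at 2.79, 2.72, 4.26 and 6.26. CCNI, a cyclin-like gene, had an extra region at 2.32, 3.72, 2.43 and 3.72, where both conditions had the same order of replicates. Together, 63 of 786 listed genes tested in all libraries held a TGFβ1-only region (8.02%), beside 5.35% of all tested genes. The lists cover 64 of the 246 genes, so most genes with a TGFβ1-only region belong to no list.

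**Figure D4:**
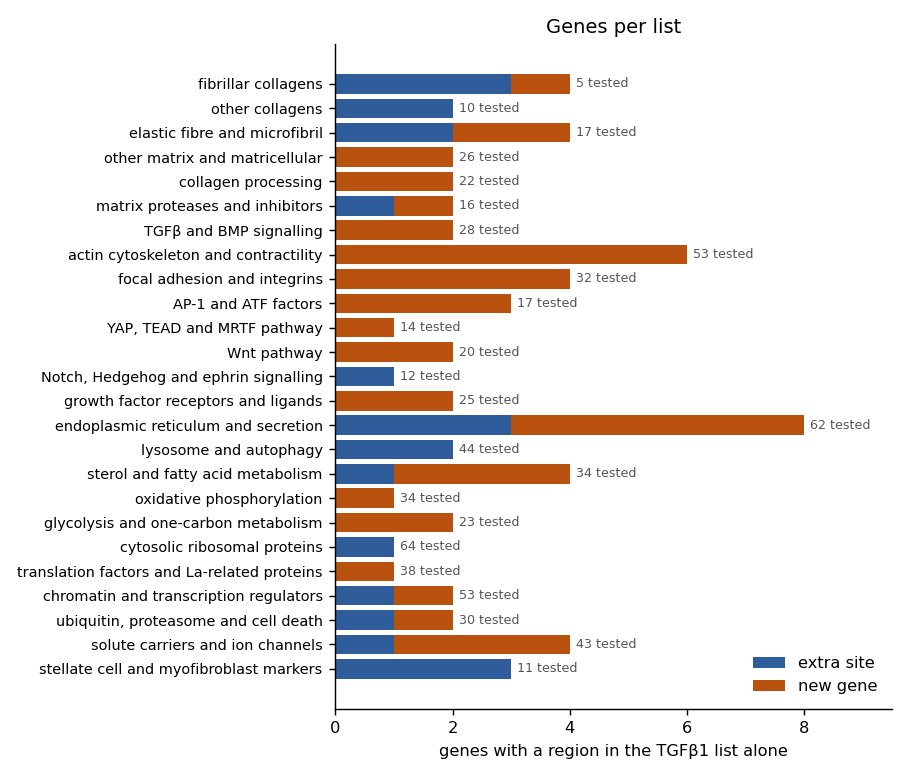
Number of genes with a TGFβ1-only region (horizontal axis) in each list that has one, divided into extra-site and new genes. The grey figure beside each bar is the number of genes of the list with a tested cluster in all 4 libraries, and FGF1 of the growth factor list is counted in the bar though it had none in control. The longest bar is that of the endoplasmic reticulum and secretion, with 8 genes of 62 tested, and the cytoskeletal and focal adhesion bars hold new genes alone.

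Markers of the labelled cell type were found among the tested clusters. Of 14 markers of stellate cells and myofibroblasts, 11 were tested in all 4 libraries. Among these, COL1A1, COL1A2 and COL3A1 held TGFβ1-only regions (27.3%, beside 5.35% of all genes). Of 7 hepatocyte and 5 liver endothelial markers 0 were tested in all libraries, and so were 2 of 4 cholangiocyte and 1 of 5 macrophage markers. None of these held a TGFβ1-only region.

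Several genes in no list had many TGFβ1-only regions. SYBU, which links vesicles to kinesin, had 4 adjoining regions at 1 site, the highest at 2.88, 2.85, 4.53 and 5.95. LTAP1, a gene also called C1orf43, had 4 regions at 3 sites, the highest at 0.91, 4.17, 3.79 and 4.61, with control replicates on either side of the limit. Of the 195 new genes, 137 had 1 region, 35 had 2 and 23 had 3 or more, and 172 had a single site. The new genes often had an enriched cluster somewhere in a control library even though the control list had none. Such a cluster was found in control 1 for 5 new genes and in control 2 for 71, beside 2.90% and 4.93% of all genes with a tested cluster. It was found in neither for 121, in 1 for 72 and in both for 2, THBS1 and PLEC. The TGFβ1 libraries had one in 168 and 187 of the 195, beside 6.36% and 10.9%. New genes had a median of 7, 7, 6 and 11 tested clusters in the 4 libraries, extra-site genes had 12, 12, 11 and 19, and all genes tested in 4 libraries had 4, 4, 3 and 6.

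Extra sites often lay close to a control-list region. Of the 98 extra-site regions, 23 lay within 20 nt of a control-list region, 37 within 100 nt, 61 within 1000 nt and 37 farther away. The median distance was 189 nt. In LTBP1, LRP1 and THY1 a region abutted a control-list region without sharing a base, and in PRMT5 and ATL3 the gap was 1 nt. THY1, a surface glycoprotein of stromal cells, had 2.42, 2.28, 4.33 and 3.51 at its abutting region. The abutting LRP1 region had 2.91, 2.72, 4.17 and 3.30. PRMT5, an arginine methyltransferase gene, had 3.70, 3.35, 4.08 and 5.08, and ATL3, which shapes the endoplasmic reticulum, had 2.96, 2.92, 4.11 and 4.22. Just inside the shared class were regions with 1 nt in common. LBH, a transcriptional cofactor gene, had 2.79, 3.43, 3.85 and 4.67 at such a region, MSMO1, a sterol oxidase gene, had 5.20, 5.58, 3.23 and 6.91, and SPTBN1, a spectrin gene, had 3.55, 4.07, 3.56 and 3.02. CAVIN1 of caveolae had 1.12, 5.93, 3.79 and 3.13, and RNA45SN2, an rRNA precursor copy, had 3.22, 3.36, 3.02 and 4.72. The values on both sides of this limit overlapped.

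In 18 of the 51 extra-site genes the highest TGFβ1-only value was above the highest control-list value of the gene. SHISA5, a membrane protein linked to cell death, had an extra site without any control cluster, at 3.75 and 5.75 in the TGFβ1 libraries, and LBH had one at 3.14 and 3.84. Together with FGF1 these are the 3 regions at which neither control library was tested. MEGF6, a protein with EGF-like repeats, had 3 extra sites, the highest at 2.25, 3.26, 4.60 and 5.20. TOB2, an antiproliferative protein, had one at 2.60, 2.96, 3.79 and 5.15, and CSNK2B, the regulatory subunit of casein kinase 2, had one over its 5′ bases at 0.38, 1.14, 4.08 and 3.50. A second CSNK2B region adjoins it, where control values were 3.04 and 2.91 and the TGFβ1 values 3.08 and 3.26. The contrast in CSNK2B thus changed within 1 site.

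By share of gene length, more TGFβ1-only regions lay at the 3′ end than at the 5′ end, while by distance in nt more lay within 500 nt of the 5′ end. The 10% of the gene nearest its 3′ end held 145 of 386 regions in genes (37.6%, 95% Wilson interval 32.9 to 42.5), and the 10% nearest its 5′ end held 46 (11.9%, 9.05 to 15.5). For shared regions these shares were 33.6% and 15.1%, and for all tested clusters of the TGFβ1 libraries 22.4% and 24.6% at the 3′ end and 19.3% and 16.9% at the 5′ end. Within 500 nt of the 5′ end lay 41 TGFβ1-only regions (10.6%, 7.93 to 14.1), beside 16.7% of shared regions and 14.6% and 12.6% of all clusters. Within 500 nt of the 3′ end lay 32 (8.29%), beside 13.6% of shared regions and 7.0% and 6.88% of all clusters. Within 200 nt the counts were 29 at the 5′ end and 13 at the 3′ end. Within 1000 nt the order was reversed, with 48 (12.4%) at the 5′ end and 83 (21.5%) at the 3′ end. Shared regions had 21.2% and 21.9% within 1000 nt. Neighbouring regions of a gene are not independent, so no test was made, and the annotation used gives gene bounds without exons, so positions within the mRNA are not given.

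**Figure D5:**
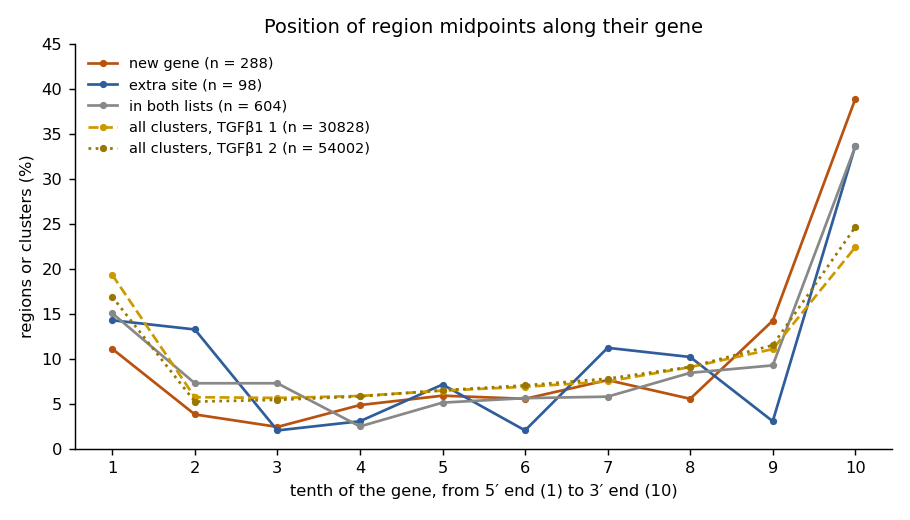
Share of regions or clusters (vertical axis, percent) whose midpoint lies in each of 10 equal parts of its gene, from the 5′ end (1) to the 3′ end (10). Lines show new genes, extra sites, regions in both lists and all tested clusters of both TGFβ1 libraries. The part at the 3′ end holds 38.9% of regions in new genes, 33.7% of extra-site regions and 33.6% of regions in both lists, and 22.4% and 24.6% of all clusters.

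The plot of position along the gene shows the higher share at the 3′ end for each class of listed regions. The 83 regions within 1000 nt of the 3′ end lay in 59 genes, and 69 of them in new genes. Their median log2 folds were 2.79, 3.12, 3.73 and 4.20. The 41 regions near the 5′ end lay in 34 genes, with 29 regions in new genes and 12 at extra sites, and had medians of 2.39, 2.58, 3.48 and 3.75. Control 2 was enriched at 5 of these 41 and at 31 of the 83, control 1 at 2 and 5. Besides the 9 genes whose sequences are shown, the 34 genes include MAP2, ODC1, GAS6, SLC16A1, STAM2 and NORAD. ODC1, the first enzyme of polyamine synthesis, had 2.49, 2.58, 3.01 and 4.05 at its 5′ end. SRM, a later enzyme of the same route, had 2.60, 3.51, 4.37 and 3.75. ROMO1, a mitochondrial inner membrane protein, had 2.70, 3.26, 4.26 and 4.58, UBA2, a subunit of the SUMO activating enzyme, had 2.79, 1.58, 3.32 and 3.63, and ZBTB21 had 2.70, 3.17, 3.79 and 4.42. POLDIP2, a mitochondrial and nuclear adaptor protein, had 2.12, 2.91, 2.89 and 3.26, with control 2 above TGFβ1 1. ODC1 and the others named in this paragraph that are not in a list were chosen after their values were seen.

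Merged where at most 20 nt apart, the 615 shared regions made 279 sites and the 393 TGFβ1-only regions made 297. Shared sites were thus listed in more pieces per site, and the widths of whole merged sites were not compared. As listed pieces, TGFβ1-only regions were wider than shared ones. Their median width was 53 nt (range 2 to 202), with 61 nt in new genes and 32 nt at extra sites, beside 28 nt for shared regions and 49 and 47 nt for all clusters of the TGFβ1 libraries.

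Nearly all TGFβ1-only regions lay in protein-coding genes, with 373 of 393 (94.9%, 95% Wilson interval 92.3 to 96.7). The long noncoding RNAs held 5, of which 3 were adjoining pieces in MIR100HG, with 3.12, 0.43, 3.48 and 3.26 at the highest. CYTOR had 1.70, 2.85, 2.46 and 3.81, and NORAD, which binds Pumilio proteins, had 2.30, 1.85, 2.88 and 3.29. Of small and structural RNAs, RN7SL2, an RNA of the signal recognition particle, had 3.25, 3.65, 4.26 and 6.25, and 2 copies of the 28S rRNA, RNA28SN1 and RNA28SN3, had 2.88, 3.91, 3.94 and 4.63 and 3.32, 3.43, 4.20 and 3.48. These genes have near-identical copies, so reads may stem from another copy. The tRNA gene TRS-GCT3-1 had 2.99, 2.16, 3.45 and 2.70. One region covered 48 of the 79 bases of the MIR887 hairpin on chromosome 5, with 2.96, 3.65, 4.71 and 5.56. PTCHD3P1, a pseudogene, held 3 regions, the highest at 3.49, 2.58, 4.26 and 4.65.

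The 7 regions to which no gene was assigned formed 5 sites. A pair of regions on chromosome 22 (37943872 to 37943971 and 37943997 to 37944082, plus strand) had 1.12, 1.58, 4.57 and 3.61 and 1.70, 2.35, 3.39 and 3.75. On chromosome X, the regions 145731486 to 145731490 and 145731500 to 145731511 shared the values 1.21, 0.35, 3.01 and 6.38. In both places the TGFβ1 libraries lay above the control libraries. On chromosome 11, the regions 62252198 to 62252205 and 62252206 to 62252222 shared 2.88, 4.99, 4.62 and 5.93, and control 2 overlapped with TGFβ1 1. The last lay in mitochondrial DNA (10003 to 10015, plus strand), at 2.88 in control 1 and 3.67 and 3.46 in TGFβ1, without a cluster in control 2. Whether mitochondrial genes could be matched in the assignment was not checked, so this region may lie in a gene.

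Replicate 2 had higher values than replicate 1 in both conditions at these regions. TGFβ1 2 lay above TGFβ1 1 at 304 of 393 regions, and control 2 above control 1 at 265 of 368. At shared regions these counts were 463 of 615 and 426 of 613. A log2 fold over 5 was found at 102 TGFβ1-only regions in TGFβ1 2 and at 11 in TGFβ1 1, and at 1 and 0 in control 2 and control 1. The share of clusters called enriched differed between the libraries in the same order, and its part in the TGFβ1-only regions was not tested.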

How the data were processed

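LARP6 eCLIP libraries and size-matched inputs of human hepatic stellate cells were used, 2 of each with TGFβ1 and 2 of each without. Cutadapt, UMI-tools and STAR and the build GRCh38 are named in the submitters' processing notes. The peak caller and the rule that joined replicates into 1 list per condition are not given in the sources used here. Each deposited list holds 1 cluster or region per line, with a −log10 p (capped at 400 by the authors) and a log2 fold over the input, as read from the values, since the files have no header. Both were used as deposited, and inputs enter only through these folds.

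Regions of the TGFβ1 list with no shared nucleotide (minimum overlap 1 nt, same strand) in the control list were taken, without regard to other values. In each library a region has the value of the overlapping cluster with the highest fold. Genes were assigned by midpoint with 59792 RefSeq genes (GRCh38.p14), small RNAs first, then protein-coding, then the shortest gene. Strand came from the RefSeq promoter table for 27303 genes and from clusters for 1171. The strand by clusters was the same for 5297 of 5337 genes checked. Intervals are 95% Wilson intervals. Overlap code was checked on simulated data. Scripts ran in Python 3.11.15 with pandas 2.3.3 and NumPy 2.4.6, intervals in SciPy 1.17.1 and figures in matplotlib 3.10.9.

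Named are the 12 genes with most TGFβ1-only regions, the 15 new and 15 extra-site genes with the highest list value, up to 6 genes of each of 30 lists, the 10 largest and 5 smallest differences, regions without a control cluster, the 5 nearest to either side of the overlap limit, the 6 with the highest control values, LARP6 and the collagens it is known for. A few genes that this rule names are not reported here. The members and lists were chosen with earlier results of these data known. Of 1150 listed genes, 1148 matched a symbol. Alternatives tried are stricter limits, other overlaps, merged regions, lists remade from the clusters, other gene rules and each library left out.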

Additional observations from a re-analysis of the deposited data

How the results depend on the processing

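Of 59 alternatives, 47 left their result within 1.5 times the reported count or within the spread or interval of the reported value, 12 moved it and 0 reversed it. The number of TGFβ1-only regions was 279 to 1307 when each library was left out in turn, so that the enriched clusters of the remaining one stood for its condition. The new genes were then 128 to 697 and the extra-site genes 45 to 86, the highest of each without TGFβ1 1. The extra-site genes were 33 when gaps of up to 100 nt counted as shared and 30 at a −log10 p limit of 5. With a gene called new only where no control library had an enriched cluster in it, a setting chosen after seeing the data, 121 genes were new and 125 had an extra site. The regions enriched in neither control library were 256 without control 1 and 385 without control 2. A log2 fold limit of 4 left 126 and 232 regions enriched in TGFβ1 1 and TGFβ1 2. Within 200 nt of the 5′ end lay 7.51%. The cause of these moves was not tested beyond the fewer libraries or regions that each setting holds. No paired analysis was possible because no result here comes from a test, and whether equal replicate numbers mark a shared culture or day is not given in the sources used here. Described by number over the 368 regions, the median difference was 1.19 for TGFβ1 1 minus control 1 (above 0 at 347 regions) and 1.42 for TGFβ1 2 minus control 2 (above 0 at 341). Read depth is unknown.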
